A study of Arabidopsis thaliana with 6 samples.

Results

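The 6 bud transcriptomes of this series were split by the level of TOC1 (TIMING OF CAB EXPRESSION 1), a gene of the circadian clock that peaks in the evening. TOC1 was computed in each library as its count over the library total, and the 3 libraries above 60 CPM (counts scaled to a common library total) were set against the 3 below it, so the groups were chosen by a measured value. The TOC1-high group held transgenic replicate 3 and wild type replicates 1 and 2, at 103.66, 74.5 and 84.9 CPM. The TOC1-low group held transgenic replicates 1 and 2 and wild type replicate 3, at 47.0, 42.2 and 24.6 CPM. The libraries next to the threshold were wild type replicate 1 on its upper side and transgenic replicate 1 on its lower side. Because the groups were selected on TOC1 in these same libraries, every difference between them is given as a description, and no test was made of it.

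All libraries came from young flower buds (anther stages 6 to 9) of Arabidopsis thaliana, ecotype Col, grown in a greenhouse with 16 h light and 8 h dark at 23 °C. The BnA9::BnMAGL8.1 plants carry BnaC.MAGL8.a, a monoacylglycerol lipase gene of oilseed rape, under BnA9, a promoter that drives expression in the tapetum, the nurse tissue of the pollen. Wild type plants lack it. Each genotype had 3 biological replicates, and for the hour of sampling no value was given in the labels or methods. BnMAGL8.1, the transgene, had 9594 counts in transgenic replicate 3, 5552 in replicate 1 and 853 in replicate 2, and 0 counts in each wild type library. Library totals lay between 13519945 and 14729927 counts, and 18642 entries of 27629, the transgene among them, passed the filter on low counts. Levels below are CPM after TMM scaling, always in the order transgenic 3, wild type 1 and wild type 2 (TOC1-high), against transgenic 1, transgenic 2 and wild type 3 (TOC1-low). The log2 difference is TOC1-high minus TOC1-low, fitted with genotype as a covariate.

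The plant clock is a loop of repressors in which the morning factors LHY and CCA1 and the evening factor TOC1 hold one another down. The clock and the daily light period together set the hour at which genes of photosynthesis, starch turnover, growth and stress defence are expressed. Many evening genes carry the evening element, a short sequence bound by LHY, CCA1 and the related REVEILLE proteins. A pool of buds taken at one hour is therefore a snapshot of this cycle.

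The label of evening against morning was checked with LHY (AT1G01060, chromosome 1, 33365 to 37871 on the TAIR10.1 assembly). LHY was at 0.143, 1.03 and 0.150 CPM in the TOC1-high libraries, against 2.48, 6.48 and 32.4 CPM in the TOC1-low libraries, a log2 difference of -5.52. The 6 libraries stood in exactly the reverse order for LHY, except that transgenic 3 and wild type 2 had 2 counts each. TOC1 (AT5G61380, chromosome 5, 24674963 to 24678550) itself was at 101, 70.7 and 88.8 CPM in the TOC1-high libraries, against 51.0, 43.0 and 23.3 CPM in the TOC1-low libraries after scaling. ELF4, a partner of the evening repressor complex, was at 48.2, 36.5 and 57.7 CPM in the TOC1-high libraries, against 18.1, 27.5 and 0.628 CPM in the TOC1-low libraries, and CCA1 was at 0.358, 1.48 and 0.451 CPM against 3.85, 1.68 and 13.2 CPM. In wild type 3 the morning pair was the highest and both evening genes the lowest of all libraries, and transgenic 1 and 2 stood between it and the TOC1-high group for TOC1, LHY, ELF4 and CCA1. Of the 12 clock core genes 5 were higher without overlap, 2 were lower, and 5 overlapped (LUX, PRR5, ELF3, PRR7 and PRR9). TOC1 is among the 5 higher genes, and its place there was set by the split. PRR9, a morning gene, was at 0.286, 1.74 and 0 CPM against 0.801, 0.947 and 6.28 CPM, with wild type 1 above transgenic 1 and 2. The TOC1-low libraries are thus unequal, and the hours behind them are not known.

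Of 18641 Arabidopsis genes, 1685 were higher in every TOC1-high library than in any TOC1-low library (9.04% of the genes tested) and 1552 were lower (8.33%). With a log2 difference of at least 1 as well, 409 genes stood higher (2.19%) and 386 lower (2.07%). These 795 genes are called separated below, and TOC1, which made the split, is among the higher ones. Counts of list members without overlap are to be read against the 9.04% higher and 8.33% lower of all genes. The median log2 difference over all genes was 0.02. In the 386 lower genes the highest library was wild type 3 in 205, transgenic 1 in 155 and transgenic 2 in 26. In the 409 higher genes the lowest library was transgenic 2 in 227, wild type 3 in 131 and transgenic 1 in 51. The library at the far end of the TOC1-low group therefore differed between gene groups, as described for each. Leaving out 1 library leaves fewer libraries to keep apart. The count of higher genes became 681 without transgenic 1 and 640 without transgenic 3. That of lower genes became 642, 618 and 582 without transgenic 2, transgenic 3 and wild type 1. Without wild type 3 only 290 of the 409 higher genes and 297 of the 386 lower genes were still separated.

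Tapetum, exine and pollen genes, used here as a guide to bud age, differed between the libraries as well. The 13 genes of the tapetum and exine summed to 1004, 1259 and 1855 CPM in the TOC1-high libraries and to 1819, 758 and 2702 CPM in the TOC1-low libraries, and all 13 overlapped, each with a fitted difference below 0. The 9 tested genes of 11 for the pollen coat and late pollen summed to 1941, 5140 and 3827 CPM, against 2008, 1944 and 1606 CPM, with 2 members not overlapping (GRP16 and EXL4, both higher). Wild type 3 was the highest library for the exine genes and wild type 1 for the pollen coat genes. Between transgenic and wild type buds their median log2 differences were -0.72 and -0.74. An unadjusted p under 0.05 by edgeR was found for 2 of 13 and 5 of 9, against 1275 of 18642 over all genes. None of them was called by edgeR at an adjusted p under 0.05. The paper lists AMS, CYP704B1 and EXL5 as lower in the transgenic buds, by DESeq2 with a different threshold, a cut on the P-value. Its real-time PCR gave AMS, CYP704B1, ACOS5, MS2, PKSB and TKPR2 as lower, and CYP703A2, PKSA and TKPR1 as higher. The parts of bud age and genotype in the tapetum and pollen lists were not told apart. The part of bud age in the differences below was not tested. In whole buds, fewer cells of a type and less RNA per cell cannot be told apart.

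**Figure D1:**
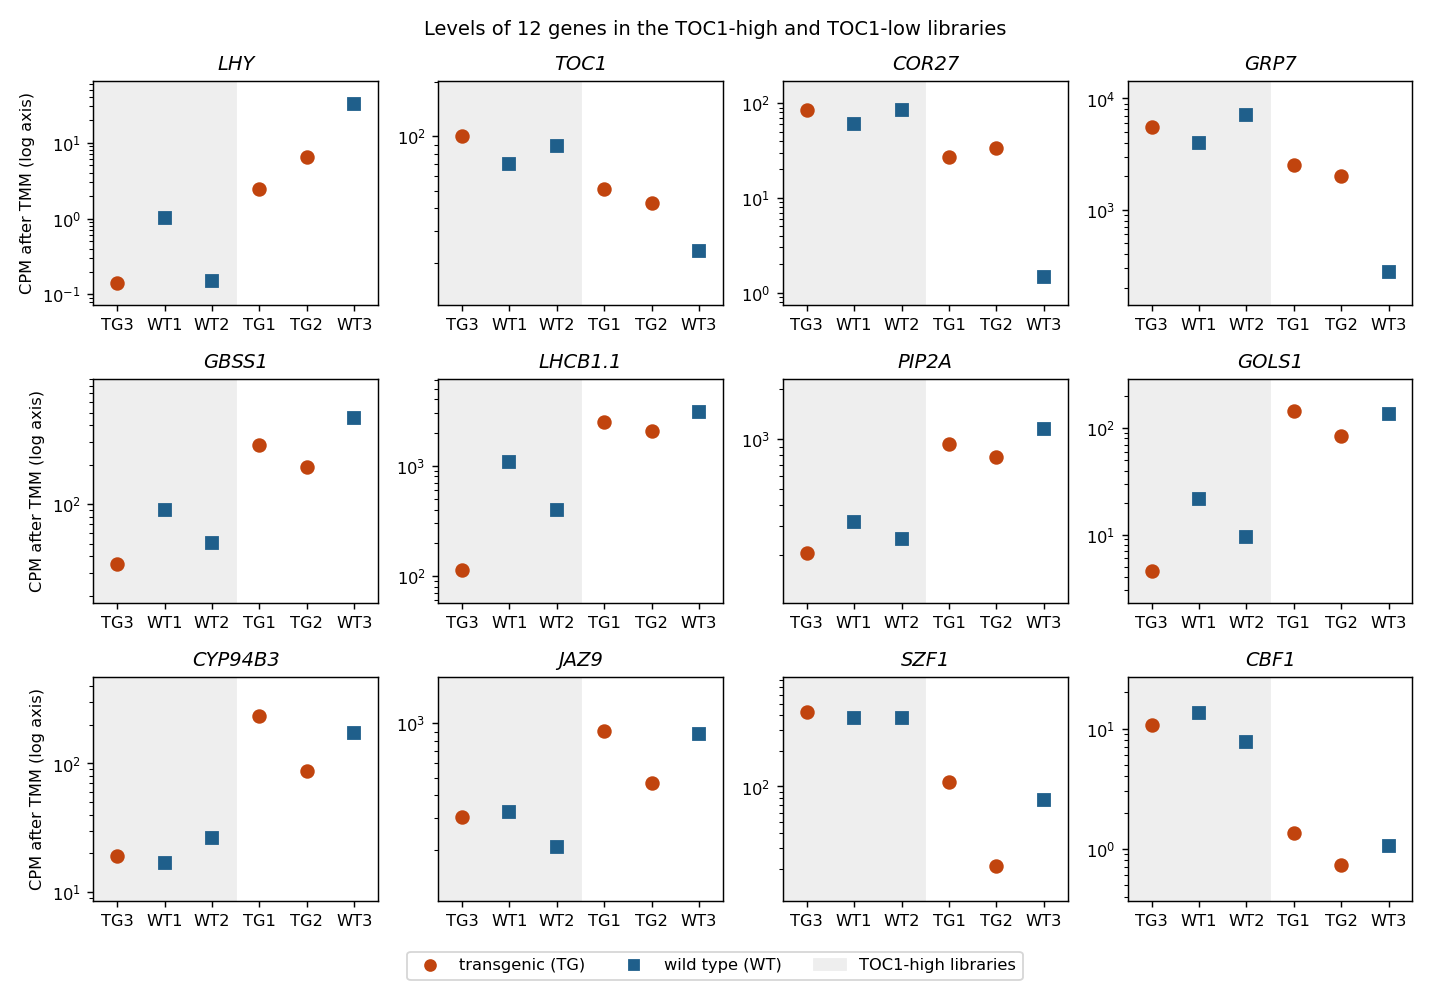
Levels of 12 genes in each library as CPM after TMM scaling, on a log axis, with transgenic (circles) and wild type (squares) libraries and the TOC1-high libraries on a grey ground at the left. All 12, TOC1 among them, are genes whose groups do not overlap, so the 3 TOC1-high libraries lie on one side by choice. LHY, COR27 and GRP7 are most extreme in WT3, SZF1 and CBF1 are lowest in TG2, and LHCB1.1 is lowest in TG3.

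COR27, COR28, GRP7 and FKF1, genes downstream of the clock, were higher without overlap in the TOC1-high libraries. COR27 (AT5G42900, chromosome 5, 17197641 to 17199910), a cold-regulated repressor that links the clock to freezing tolerance and flowering, was at 84.5, 59.6 and 85.6 CPM in the TOC1-high libraries, against 27.3, 34.0 and 1.47 CPM in the TOC1-low libraries, a log2 difference of 3.44. Its partner COR28 was at 8.08, 7.86 and 9.39 CPM against 2.48, 2.99 and 0.698 CPM (2.42). GRP7 (AT2G21660, chromosome 2, 9265084 to 9266557), an RNA-binding protein that forms a slave oscillator of the clock, was at 5498, 3971 and 7170.5 CPM in the TOC1-high libraries, against 2543, 1991 and 276 CPM in the TOC1-low libraries (2.81). The groups did not overlap for these 3 genes, and wild type 3 was the lowest library for each. GRP8, the close relative of GRP7, was at 326, 410.0 and 559 CPM against 360.5, 194 and 117 CPM, and transgenic 1 overlapped the TOC1-high group. FKF1, a blue light receptor that marks repressors of flowering for degradation, was at 51.4, 44.7 and 58.7 CPM against 39.2, 22.9 and 4.19 CPM (2.14). JMJD5, a jumonji oxygenase of the clock, had the largest fitted difference of the clock accessory genes at 3.65, but its libraries overlapped, with 172, 56.1 and 109 CPM against 7.77, 93.2 and 1.68 CPM. JMJD5 was thus low in transgenic 1 and wild type 3 and within the TOC1-high range in transgenic 2. Of the 22 clock accessory genes 3 were higher without overlap (GRP7, CHE and PRMT5) and 1 lower (ZTL), with a list median of -0.01. Over all genes 9.04% were higher and 8.33% lower without overlap.

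The windows of 300 bases before the annotated start of GRP7 and THIC, the last a gene of thiamine synthesis, are shown for their matches to the evening element (AAAATATCT, either strand), with the matches in capitals. Sequences are from the RefSeq TAIR10.1 genome, written 5′ to 3′ on the strand of the gene.
GRP7 (chr2:9266558-9266857, minus strand): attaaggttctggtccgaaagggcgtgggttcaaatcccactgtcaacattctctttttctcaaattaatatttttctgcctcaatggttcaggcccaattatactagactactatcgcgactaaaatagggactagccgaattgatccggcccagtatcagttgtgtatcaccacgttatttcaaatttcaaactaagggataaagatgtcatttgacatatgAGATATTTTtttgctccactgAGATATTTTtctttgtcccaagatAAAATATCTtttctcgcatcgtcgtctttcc
THIC (chr2:12666635-12666934, plus strand): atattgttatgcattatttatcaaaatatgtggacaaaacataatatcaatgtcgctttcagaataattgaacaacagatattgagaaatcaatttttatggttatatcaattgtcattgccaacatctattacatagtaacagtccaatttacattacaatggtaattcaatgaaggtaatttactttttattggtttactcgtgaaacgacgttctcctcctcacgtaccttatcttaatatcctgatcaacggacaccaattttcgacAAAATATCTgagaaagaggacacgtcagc

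GRP7 held 3 matches and THIC 1. In windows of this length the evening element occurred in 19 of 409 separated higher genes (4.65%), in 12 of 385 separated lower genes (3.12%) and in 563 of 18600 genes tested (3.03%). Matches also lay before PWD and ISA3 of starch breakdown, and before COL2, which was lower in the TOC1-high libraries. THIC, which makes the pyrimidine part of thiamine, was at 222, 183 and 211 CPM in the TOC1-high libraries, against 159, 147 and 77.0 CPM in the TOC1-low libraries, a log2 difference of 0.94, without overlap and with wild type 3 lowest. THI1, which makes the thiazole part, was at 5085, 4277 and 5806 CPM against 5134, 4676 and 2184 CPM, and its groups overlapped because transgenic 1 and 2 lay within the TOC1-high range. Of the 5 thiamine genes only THIC had groups that did not overlap.

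Of the REVEILLE and LNK genes 5 of 11 were lower without overlap in the TOC1-high libraries. The list holds the MYB-like REVEILLE factors and the LNK coactivators, and 11 of its 12 genes were tested. Their median log2 difference was -1.98, with 0 higher without overlap and 6 that overlapped, and RVE2 had the only positive difference (0.47). RVE8, an activator of evening genes, was at 0.429, 2.96 and 0.901 CPM in the TOC1-high libraries, against 3.12, 4.81 and 17.7 CPM in the TOC1-low libraries (-3.18). LNK2 was at 1.14, 7.09 and 2.25 CPM against 6.41, 10.3 and 36.5 CPM (-2.91), LNK4 at 1.502, 7.48 and 1.28 CPM against 10.8, 8.23 and 27.8 CPM (-2.66) and LNK3 at 1.36, 7.67 and 1.43 CPM against 5.21, 6.77 and 23.9 CPM (-2.27). Wild type 3 was the highest library for all 4 genes, and wild type 1 stood above transgenic 1 for LNK2 and LNK3, which overlapped.

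Genes of day length and flowering split both ways. COL1 and COL2, close relatives of the flowering regulator CONSTANS, were at 5.29, 6.57 and 4.28 CPM against 17.63, 42.0 and 62.3 CPM (-3.02) and at 1.43, 1.48 and 0.826 CPM against 1.76, 4.37 and 13.7 CPM (-2.39). CDF3, a DOF repressor of CONSTANS, was at 7.08, 13.5 and 8.26 CPM against 23.2, 19.7 and 32.5 CPM (-1.58). These 3 genes and CDF2 were lower without overlap, while FKF1, COL9 and CDF5 were higher, among 9 genes tested of 13. CO, FT, TSF and CDF1 had at most 46 counts over the 6 libraries and were not tested.

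B-box proteins, zinc finger factors of light signalling, stood mostly lower in the TOC1-high libraries. Of 17 tested, 9 were lower without overlap and 0 higher, with a median of -0.61. BBX31 was at 1.22, 3.74 and 0.901 CPM in the TOC1-high libraries, against 5.13, 14.0 and 29.3 CPM in the TOC1-low libraries (-3.34), and BBX25 at 5.80, 14.2 and 6.31 CPM against 31.9, 31.4 and 62.3 CPM (-2.53). BBX18 was at 0.859, 4.83 and 2.33 CPM against 5.29, 6.19 and 13.8 CPM. BBX30 was at 0, 4.83 and 0.601 CPM against 3.85, 8.74 and 20.3 CPM, with 0 counts in transgenic 3, and its groups overlapped through wild type 1. Light receptors and their signalling genes went the same way, with 8 of 14 lower, 0 higher and a median of -0.70. HYH, a bZIP factor of light response and a homolog of HY5, was at 0.429, 1.68 and 1.202 CPM against 3.69, 3.79 and 12.1 CPM (-3.07). The early light-inducible proteins protect chloroplasts from excess light, and ELIP2 was at 3.58, 4.45 and 2.03 CPM against 6.73, 11.7 and 25.8 CPM (-2.20) and ELIP1 at 12.9, 12.4 and 8.56 CPM against 11.7, 30.96 and 67.6 CPM. SPA3, a partner of the COP1 ubiquitin ligase, was at 2.07, 1.096 and 1.35 CPM against 2.48, 3.93 and 10.05 CPM (-1.86). For HYH, ELIP1, ELIP2 and SPA3 wild type 3 was the highest library, and ELIP1 overlapped through transgenic 1. The phytochromes PHYA and PHYB, by contrast, had log2 differences of -0.21 and -0.28 and overlapped. The PIF factors and shade genes showed little, with 1 higher and 1 lower of 11, a median of -0.11, and ATHB2 at 0.40 and CKX5 at -0.54 as the members without overlap. HFR1 (-0.82) and PIF5 (-0.41) overlapped.

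**Figure D2:**
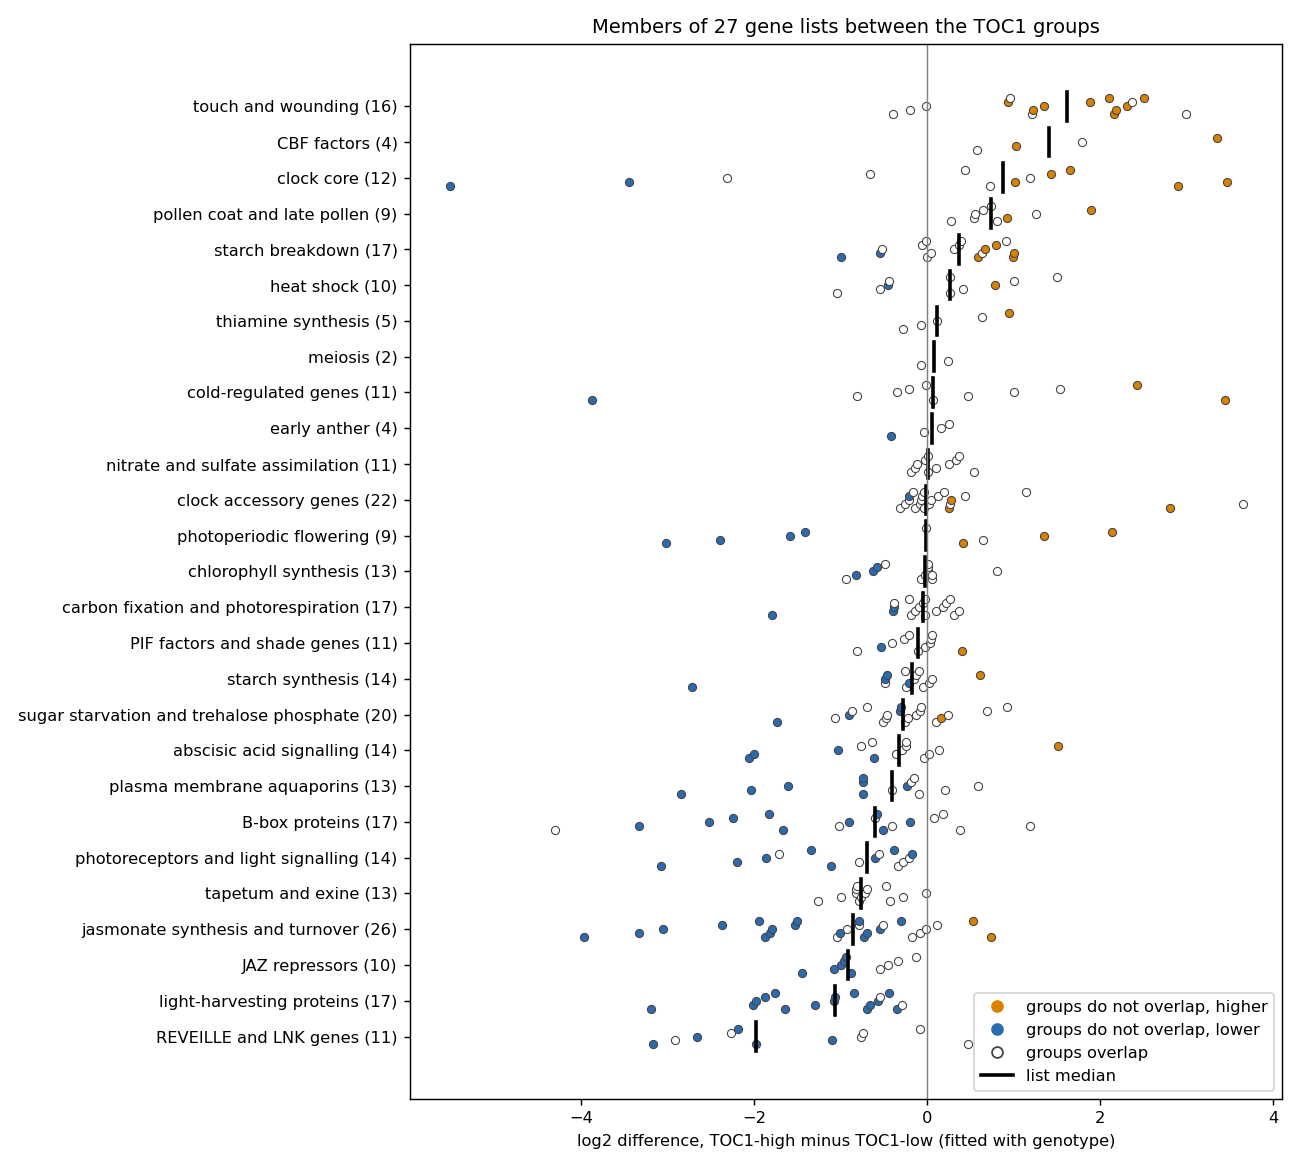
Fitted log2 difference, TOC1-high minus TOC1-low, of each tested member of 27 gene lists, with the number tested in brackets, filled where the groups do not overlap, and the list median as a bar. The touch and wounding list has the highest median (1.62) and the REVEILLE and LNK list the lowest (-1.98), while the median over all genes is 0.02.

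The light-harvesting proteins, which bind chlorophyll in the antennae of both photosystems, had the largest share of members without overlap among the 27 lists. All 17 had negative fitted differences, 15 were lower without overlap, and the median was -1.07. LHCB1.1 (AT1G29920, chromosome 1, 10474656 to 10475969) was at 112, 1090.2 and 397 CPM in the TOC1-high libraries, against 2497, 2055 and 3063 CPM in the TOC1-low libraries, a log2 difference of -3.19. LHCB2.1 was at 209, 649.8 and 328 CPM against 1232, 983 and 1519 CPM (-2.02), and LHCB2.3 at 42.4, 125 and 56.9 CPM against 192, 186 and 319 CPM (-1.98). LHCB1.4 was at 9.94, 31.2 and 11.1 CPM against 124, 51.3 and 32.6 CPM (-1.87). Transgenic 3 was the lowest library in 14 of the 15 members, and transgenic 1 rather than wild type 3 was the highest in 10. The smallest differences were those of LHCB4.1 (-0.29, with overlap), LHCA2 (-0.36) and LHCB6 (-0.45). Exons of LHCB1.1 share runs of 50 bases with LHCB1.3 (20.5% of its runs) and those of LHCB2.1 with LHCB2.2 (22.7%), so the split of counts between such copies is uncertain. LHCB1.3 itself overlapped, at 6267, 7858 and 8422 CPM against 13981, 8381 and 9707 CPM.

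Chlorophyll synthesis and carbon fixation were the other photosynthetic lists, with medians nearer 0. Chlorophyll synthesis had a median of -0.03, with 3 of 13 lower (GUN4, CRD1 and CHLH) and 0 higher without overlap. GUN4, a porphyrin-binding regulator of the pathway, was at 55.1, 62.9 and 62.1 CPM against 94.5, 97.9 and 113 CPM (-0.83), and CRD1, a subunit of the cyclase, at 460.2, 570.3 and 520.1 CPM against 849, 776 and 739 CPM (-0.63). CAO, which makes chlorophyll b, was at 13.7, 20.6 and 12.02 CPM against 20.3, 23.2 and 37.3 CPM, and PORB, which reduces protochlorophyllide in light, at 574, 645 and 721 CPM against 882, 411 and 199 CPM, and both overlapped. Carbon fixation and photorespiration had a median of -0.05, with 3 of 17 lower and 0 higher. The exception by size was CAT2, the catalase that removes peroxide made in photorespiration, at 90.3, 135 and 95.5 CPM in the TOC1-high libraries, against 349.8, 295 and 387 CPM in the TOC1-low libraries (-1.79). RCA, the activase of Rubisco, was at 1901, 1874 and 1983 CPM against 2719.7, 2626 and 2373 CPM (-0.40), HPR1 at -0.38 without overlap, and SHM1 at -0.38 with overlap.

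Among the starch genes GBSS1 stood apart from the rest in size. GBSS1 (AT1G32900, chromosome 1, 11920390 to 11923866), the granule-bound synthase that makes amylose, was at 35.0, 90.8 and 50.3 CPM in the TOC1-high libraries, against 280.4, 193 and 451 CPM in the TOC1-low libraries, a log2 difference of -2.72. Its difference was -2.73 within the transgenic buds and -2.74 within the wild type. The other 13 genes of starch synthesis had differences between -0.49 (SS3) and 0.61 (SBE2.1), and the list median was -0.18. SBE2.1, a branching enzyme, was higher without overlap at 82.9, 71.9 and 95.8 CPM against 61.9, 69.5 and 45.5 CPM, and APL1, a subunit of ADP-glucose pyrophosphorylase, was lower at 49.6, 43.1 and 36.3 CPM against 61.8, 56.8 and 65.1 CPM. Starch breakdown had a median of 0.37, with 5 of 17 tested higher and 2 lower. PHS2, a glucan phosphorylase, was at 154, 149.6 and 148 CPM in the TOC1-high libraries, against 119, 95.1 and 53.5 CPM in the TOC1-low libraries (0.996). PWD, which phosphorylates the glucans on the granule surface, was at 88.1, 76.0 and 96.2 CPM against 61.9, 67.7 and 29.5 CPM (0.99). ISA3, a debranching enzyme, was at 91.3, 61.3 and 81.8 CPM against 52.3, 64.4 and 31.6 CPM and overlapped through transgenic 2. The other higher members were DPE1, GWD1 and PHS1, and wild type 3 was the lowest library for all 5. BAM5, a beta-amylase outside the chloroplast, was lower at 518, 410.4 and 496 CPM against 1030.3, 962 and 933 CPM (-0.993), and so was BAM1 (-0.55). No member of either direction in starch breakdown reached a log2 difference of 1.

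Genes of sugar starvation and trehalose phosphate had a median of -0.28, with 4 of 20 lower and 1 higher. DIN1, a dark-inducible gene, was at 0.930, 0.387 and 1.202 CPM against 6.01, 1.46 and 2.23 CPM (-1.74), and KMD4, an F-box protein of cytokinin signalling, at 62.6, 66.5 and 59.5 CPM against 156, 94.3 and 110.2 CPM (-0.90). ASN1, the asparagine synthetase that is expressed in the dark, was at 37.0, 74.7 and 75.9 CPM against 179, 72.6 and 96.6 CPM and overlapped through transgenic 2. DRM1 was at 266, 326 and 377 CPM against 393, 150.5 and 96.3 CPM and also overlapped. For the 4 lower genes transgenic 1 was the highest library in each. Nitrate and sulfate assimilation had 0 of 11 members without overlap and a median of 0.01, and its widest fitted differences were 0.54 for APR3, 0.37 for APR1, 0.33 for APR2 and 0.25 for NIR1.

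GOLS1 and 7 of 13 water channels were lower without overlap in the TOC1-high libraries. GOLS1 (AT2G47180, chromosome 2, 19368798 to 19370478), galactinol synthase 1, opens the synthesis of raffinose sugars, and it was at 4.51, 21.5 and 9.46 CPM in the TOC1-high libraries, against 145, 85.2 and 137 CPM in the TOC1-low libraries, a log2 difference of -3.87. Of the 13 plasma membrane aquaporins, a family list added after the values were seen, 7 were lower without overlap, 0 were higher, and the median was -0.41. PIP2;3 was at 41.6, 43.2 and 45.4 CPM against 235, 238 and 400.0 CPM (-2.84), PIP2A at 205, 317 and 249.9 CPM against 932, 778 and 1148 CPM (-2.04) and PIP2B at 35.4, 38.8 and 44.5 CPM against 99.4, 94.9 and 140.0 CPM (-1.61). PIP1A was at -0.75 on the log2 scale, and the highest member was PIP2;4, at 0.58 with overlap. PIP2;3 and PIP2B share 21.7% and 19.6% of their runs of 50 bases, so their counts may be mixed, but PIP2A shares none and stood lower too. Wild type 3 was the highest library in 6 of the 7.

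Abscisic acid signalling had 4 of 14 members lower and 1 higher, with a median of -0.33. RD20, a caleosin of drought response, was at 51.2, 78.4 and 36.7 CPM in the TOC1-high libraries, against 181, 114 and 346 CPM in the TOC1-low libraries (-2.06). HB12, a homeodomain factor, was at 1.86, 3.03 and 1.502 CPM against 5.37, 5.03 and 12.4 CPM (-2.003), and RD26, a NAC factor, at 55.4, 69.5 and 74.6 CPM against 103, 96.0 and 166 CPM (-1.03). NCED3, the dioxygenase that limits abscisic acid synthesis, went the other way at 33.3, 45.4 and 42.2 CPM against 9.21, 6.48 and 22.4 CPM (1.51), with transgenic 2 lowest. Of 11 cold-regulated genes 2 were higher (COR27 and COR28) and 1 (GOLS1) lower, with a median of 0.06, and COR15B, at 214, 234 and 286 CPM against 230.3, 72.7 and 43.8 CPM, overlapped. Heat shock genes had 1 of 10 higher (MBF1C, 0.79) and 1 lower (HSP18.2, -0.46), near the 9.04% and 8.33% of all genes. HSFA2 (1.502), HSP17.4 (-1.04) and DREB2A (1.00) overlapped at under 5 CPM in each library.

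The windows before GOLS1 and RD20 are shown for the G-box (CACGTG, the same on both strands), a site of bZIP and bHLH factors, in capitals.
GOLS1 (chr2:19370479-19370778, minus strand): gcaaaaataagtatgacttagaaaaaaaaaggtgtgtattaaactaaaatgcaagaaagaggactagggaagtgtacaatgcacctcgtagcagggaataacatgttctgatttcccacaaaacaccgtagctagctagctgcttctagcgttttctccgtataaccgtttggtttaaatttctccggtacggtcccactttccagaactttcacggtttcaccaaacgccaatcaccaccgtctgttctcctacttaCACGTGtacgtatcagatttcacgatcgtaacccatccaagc
RD20 (chr2:14146556-14146855, minus strand): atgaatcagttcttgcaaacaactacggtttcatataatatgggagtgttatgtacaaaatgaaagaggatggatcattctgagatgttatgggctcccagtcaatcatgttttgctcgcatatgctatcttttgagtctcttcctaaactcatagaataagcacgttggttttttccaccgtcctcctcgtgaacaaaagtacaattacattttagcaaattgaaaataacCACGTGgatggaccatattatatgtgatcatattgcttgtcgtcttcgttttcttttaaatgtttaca

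Each held 1 match. The G-box occurred in 60 of 385 separated lower genes (15.6%), in 35 of 409 separated higher genes (8.56%) and in 1496 of 18600 genes tested (8.04%). LHY, BETA-OHASE 2 and RAP2.6 were further separated lower genes with 1 match each, and the GBSS1 and PIP2A windows held none. The I-box (GATAAG) and the CCA1-binding site (AAAAATCT) were found at 15.1% and 7.01% in lower genes, 15.2% and 6.85% in higher genes, and 14.5% and 8.05% in all genes tested.

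Of the jasmonate genes 16 of 26 were lower without overlap, a smaller share than the 15 of 17 light-harvesting genes. Jasmonate is a wound hormone made from linolenic acid, and in Arabidopsis it is needed for anthers to open. Because several of these genes led the differences, the pathway was compiled as a whole after the values were seen, and 26 of its 27 genes were tested. Over all genes 8.33% were lower without overlap. In the pathway 2 genes were higher, and the median was -0.86. DAD1, the lipase that starts jasmonate synthesis in stamens, was at 10.7, 8.89 and 2.63 CPM in the TOC1-high libraries, against 39.7, 25.7 and 51.0 CPM in the TOC1-low libraries (-2.38). The cyclases AOC1 and AOC2 were at 61.6, 34.6 and 22.0 CPM against 156, 90.0 and 212 CPM (-1.95) and at 128, 89.6 and 78.8 CPM against 496, 229.6 and 403 CPM (-1.88). AOS, the step before them, was nearly equal at 318, 269 and 327 CPM against 267, 228 and 389 CPM, and OPR3, the reductase after them, was at 612, 546 and 603 CPM against 916, 666 and 1172 CPM (-0.70). The widest differences lay in genes of hormone turnover. AT2G38240, a 2-oxoglutarate dioxygenase by its annotation, was at 3.00, 2.58 and 3.23 CPM in the TOC1-high libraries, against 69.4, 22.1 and 46.9 CPM in the TOC1-low libraries (-3.97). CYP94B1 and CYP94B3, which oxidise the active jasmonate-isoleucine, were at 12.2, 8.44 and 10.96 CPM against 135, 56.2 and 125 CPM (-3.33) and at 18.9, 16.9 and 26.4 CPM against 236, 87.0 and 174 CPM (-3.05). IAR3 and ILL6, amidohydrolases that split jasmonate conjugates, had differences of -1.82 and -1.50, and JMT, which makes methyl jasmonate, -1.53. The 2 higher members were LOX4 at 377, 436 and 521 CPM against 225, 165 and 333 CPM and OPCL1 at 352, 387 and 417 CPM against 244, 172 and 329 CPM. VSP1, a storage protein used as a jasmonate marker, overlapped at 8259, 4563 and 6070.3 CPM against 9281, 9420.0 and 5322 CPM.

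The JAZ proteins repress jasmonate responses, and their genes are induced by the hormone. JAZ1 stands in the touch and wounding list, and of the 10 other JAZ genes tested 6 were lower, 0 higher, and the median was -0.91. JAZ9 was at 304, 325 and 208 CPM in the TOC1-high libraries, against 902, 468 and 876 CPM in the TOC1-low libraries (-1.44), JAZ10 at 75.1, 62.1 and 64.4 CPM against 182, 85.2 and 159 CPM (-1.08) and JAZ6 at 121, 140.3 and 118 CPM against 275, 155 and 275 CPM (-0.96). JAZ7 was at 14.7, 9.15 and 12.5 CPM against 40.2, 15.1 and 23.0 CPM, and transgenic 2 came close to transgenic 3. Across the 16 lower jasmonate genes transgenic 1 was the highest library in 10 and wild type 3 in 6, and transgenic 2 in 0. Between genotypes none of the 26 was called, and 5 had an unadjusted p under 0.05 by edgeR, against 1275 of 18642 over all genes.

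**Figure D3:**
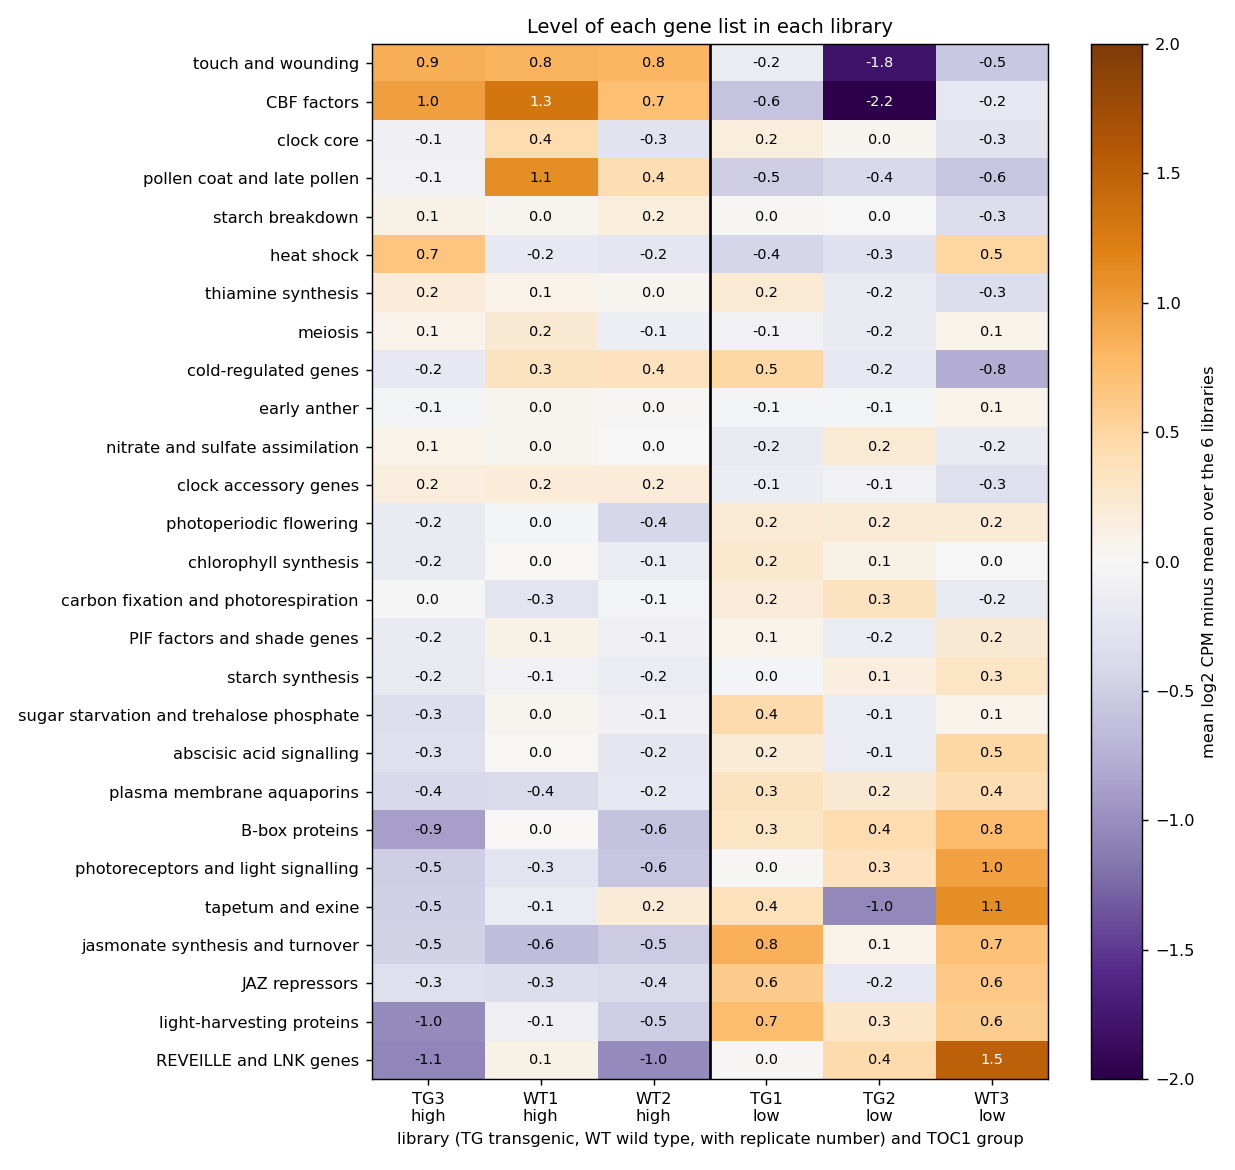
Mean log2 CPM of each gene list in each library, minus its mean over the 6 libraries, with the TOC1-high libraries left of the line. The touch and wounding genes are at 0.87, 0.82 and 0.80 in TOC1-high libraries and at -0.15, -1.80 and -0.55 in TOC1-low libraries, lowest in TG2, whereas the REVEILLE and LNK genes are highest in WT3.

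Touch and wounding genes gave the most members that were higher without overlap. These genes answer within minutes to mechanical stimulation, elicitors and injury. Of 16 tested, 9 were higher without overlap (9.04% of all genes were), 0 lower, and the median was 1.62. SZF1 (AT3G55980, chromosome 3, 20776220 to 20778952), a zinc finger protein of the early response, was at 425, 378 and 383 CPM in the TOC1-high libraries, against 109, 21.2 and 76.8 CPM in the TOC1-low libraries, a log2 difference of 2.51. ERF6, an ethylene response factor, was at 105, 84.5 and 87.3 CPM against 47.8, 7.14 and 13.3 CPM (2.31). ERF104 was at 54.2, 18.5 and 13.4 CPM against 20.5, 2.19 and 1.12 CPM (2.99) and ERF5 at 55.7, 29.5 and 20.8 CPM against 25.0, 3.35 and 3.63 CPM (2.37), and both overlapped through transgenic 1. WRKY33, a defence regulator, was at 50.4, 80.2 and 77.2 CPM against 13.6, 2.77 and 24.2 CPM. TCH4, a cell wall enzyme induced by touch, was at 105, 97.6 and 81.9 CPM against 42.1, 10.7 and 26.2 CPM, and TCH2, a calmodulin-like protein, at 242, 209 and 229 CPM against 93.3, 74.7 and 97.2 CPM. For all 9 genes without overlap transgenic 2 was the lowest library. The 7 clock core genes without overlap, TOC1 among them, were instead extreme in wild type 3. TCH3 (-0.02), DDF1 (-0.20) and JAZ1 (-0.40) overlapped.

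The window before SZF1 is shown for the W-box (TTGACC or TTGACT, either strand), a site of WRKY factors, in capitals.
SZF1 (chr3:20775920-20776219, plus strand): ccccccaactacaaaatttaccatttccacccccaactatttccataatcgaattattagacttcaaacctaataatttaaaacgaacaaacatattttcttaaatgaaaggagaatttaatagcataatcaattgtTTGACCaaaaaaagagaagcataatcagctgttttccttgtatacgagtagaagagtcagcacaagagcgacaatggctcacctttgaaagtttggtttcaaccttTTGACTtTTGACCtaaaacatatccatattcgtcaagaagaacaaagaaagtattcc

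It held 3 matches. The W-box occurred in 182 of 409 separated higher genes (44.5%), in 123 of 385 separated lower genes (31.9%) and in 5772 of 18600 genes tested (31%). Of the 16 touch and wounding genes 8 had one. The rapid stress response element (CGCGTT, either strand) occurred in 24 separated higher genes (5.87%), 7 separated lower genes (1.82%) and 603 genes tested (3.24%), and TCH2 held 4 matches.

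**Figure D4:**
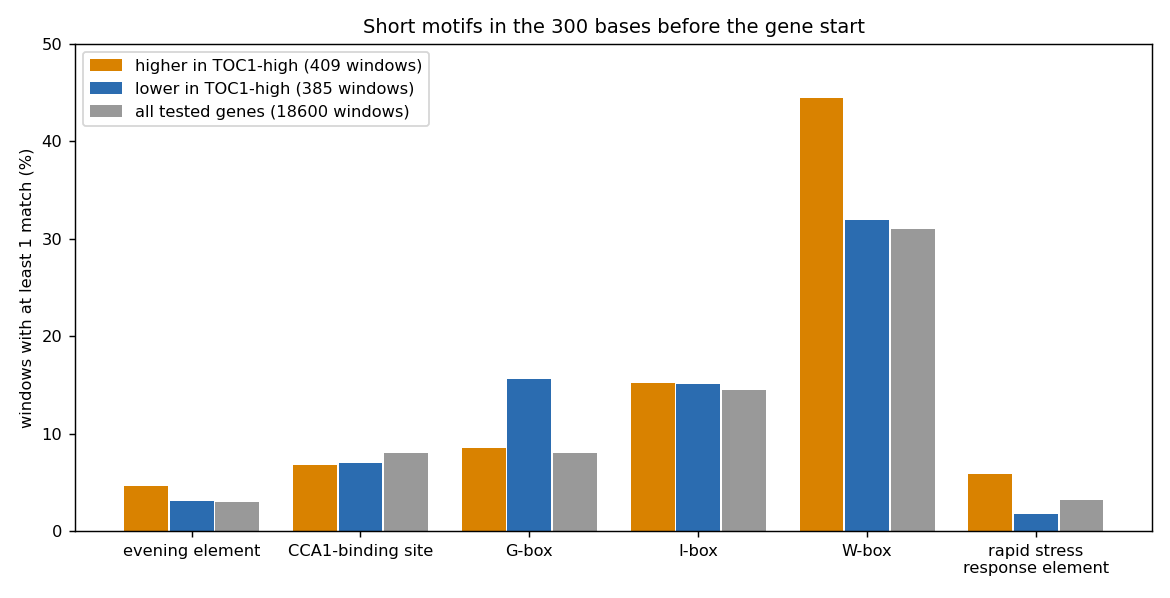
Share of 300-base windows before the gene start that hold at least 1 match to each of 6 motifs, in genes separated higher, genes separated lower and all genes tested. The G-box share is 15.6% in lower genes and 8.04% in all genes, and the W-box share is 44.5% in higher genes and 31% in all genes.

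Outside the 23 main lists, which leave out the jasmonate, JAZ, aquaporin and CBF lists, the 12 genes with the largest positive differences at a mean of at least 5 CPM included factors of cold and defence. CBF1 (AT4G25490, chromosome 4, 13021780 to 13022996), an activator of cold response whose expression is gated by the clock, was at 10.7, 13.5 and 7.81 CPM in the TOC1-high libraries, against 1.36, 0.728 and 1.05 CPM in the TOC1-low libraries, a log2 difference of 3.34. CBF3 was at 9.30, 20.9 and 14.1 CPM against 8.17, 4.37 and 6.35 CPM (1.02) and also did not overlap, whereas CBF2 (0.58) and CBF4 (1.79) did. DIC2, a mitochondrial dicarboxylate carrier, was at 255, 186 and 170.4 CPM against 65.0, 12.4 and 27.3 CPM (2.71), and AT1G07135, annotated as a glycine-rich protein, at 164, 136 and 191 CPM against 44.7, 6.92 and 21.9 CPM (2.78). SARD1, an activator of salicylic acid synthesis, was at 9.01, 7.41 and 10.7 CPM against 1.28, 1.02 and 2.16 CPM (2.51). ATL2, a RING ubiquitin ligase, was at 54.2, 32.5 and 40.6 CPM against 20.03, 6.12 and 5.72 CPM (2.35), and TET9, a tetraspanin, at 14.2, 12.1 and 15.4 CPM against 2.48, 1.02 and 4.19 CPM (2.35). The remaining 6 were AT1G11210, AT3G02840, AT5G52760, AT3G10930, AT1G19210 and AT1G72910, with differences between 2.36 and 3.08. They bear no symbol in the annotation, AT1G19210 is annotated as an integrase-type DNA-binding protein, and AT1G72910 as a TIR domain protein that shares 14.8% of its runs of 50 bases with AT1G72930.

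Among the 12 lower genes chosen in the same way 3 belong to jasmonate turnover (AT2G38240, CYP94B1 and CYP94B3) and 1 is PIP2;3. RAP2.6, an ethylene response factor, was at 6.51, 4.32 and 2.78 CPM in the TOC1-high libraries, against 70.0, 32.3 and 92.5 CPM in the TOC1-low libraries (-3.84). BETA-OHASE 2, a beta-carotene hydroxylase that leads to zeaxanthin, was at 1.22, 3.22 and 1.58 CPM against 14.1, 12.2 and 29.7 CPM (-3.54). TPS04, a terpene synthase of volatile synthesis, was at 1.14, 3.35 and 1.80 CPM against 10.8, 9.18 and 33.7 CPM (-3.48). TAT3, a tyrosine aminotransferase, was at 4.72, 1.16 and 1.35 CPM against 22.7, 8.09 and 15.9 CPM (-2.65). AT3G21670, a major facilitator transporter, was at 16.0, 34.2 and 16.8 CPM against 158, 84.6 and 128 CPM, and AT4G10290, a cupin, at 6.30, 7.02 and 4.73 CPM against 89.7, 39.0 and 45.4 CPM. The acyltransferase-like genes AT5G38130 and AT5G17540 had differences of -2.99 and -2.68. TPS04 and BETA-OHASE 2 were highest in wild type 3, while AT4G10290, AT5G17540 and TAT3 were highest in transgenic 1.

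Within each genotype the main groups differed in the same direction, but unequally. For genes whose groups do not overlap that direction is fixed by the choice of genes. In the transgenic buds (replicate 3 minus 1 and 2) the median log2 difference was -1.43 for REVEILLE and LNK genes, -1.30 for light-harvesting proteins, -0.99 for jasmonate genes and 2.13 for touch and wounding. In the wild type (replicates 1 and 2 minus 3) the medians were -2.25, -0.81, -0.82 and 1.43 in the same order of lists. Medians over all genes were 0.02 in both. COR27 differed by 1.47 in the transgenic buds and by 5.57 in the wild type, and GRP7 by 1.29 in the transgenic buds and by 4.27 in the wild type. SZF1 differed by 3.14 in the transgenic buds and by 2.31 in the wild type, and GOLS1 by -4.61 and by -3.26 in that order. With 1 library on one side in each genotype, these inequalities were not tested. Early anther genes and meiosis genes lay near 0 throughout, with medians of 0.06 and 0.08 for 4 and 2 tested genes. Of these, SPL, a regulator of early anther cell fate, was lower without overlap at 11.2, 13.8 and 12.4 CPM against 17.1, 16.0 and 15.8 CPM (-0.42).

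**Figure D5:**
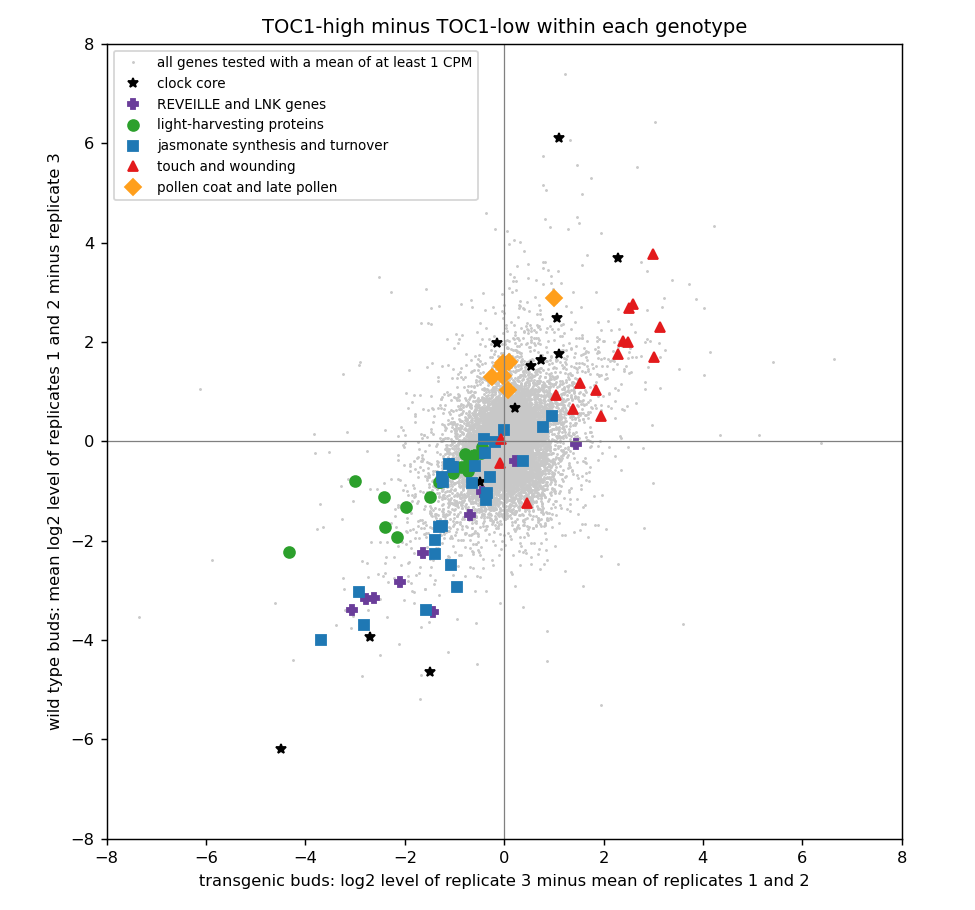
Log2 difference between TOC1-high and TOC1-low libraries within the transgenic buds (horizontal axis) and within the wild type buds (vertical axis), for all genes with a mean of at least 1 CPM (grey) and for 6 lists. Light-harvesting genes and most jasmonate genes lie at the lower left and most touch and wounding genes at the upper right, while most pollen coat genes differ in the wild type and lie near 0 in the transgenic buds.

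The genotype comparison itself was tested with edgeR's quasi-likelihood test. By that test 3 of 18642 genes differed between transgenic and wild type buds at an adjusted p under 0.05 (0.0161% of the genes tested), AT2G18150 and AT4G36430, 2 peroxidase genes that stood higher, and ICL, the isocitrate lyase gene, lower. None of the 289 tested genes of the 23 lists was called by edgeR, and DESeq2 called 2 (DDF1 and BBX32). An unadjusted p under 0.05 by edgeR was found for 30 of the 289, against 1275 of 18642 over all genes. The TOC1-high group held 2 wild type libraries and 1 transgenic, and the TOC1-low group the reverse. Genes chosen as higher in it therefore lean to a negative genotype difference, and lower genes to a positive one. The 409 separated higher genes had a median log2 difference between transgenic and wild type buds of -0.54, and the 386 separated lower genes one of 0.21, against -0.01 over all genes. With the TOC1 group as a covariate these medians were -0.08 and -0.22, and 17 genes were called (0.0912%). The groups were made from TOC1 in these same libraries, so the calls with this covariate are given as a description. One of the 17 was LHY, with a log2 difference of -2.80 and an adjusted p of 0.0195 by edgeR. Its adjusted p was 0.795 without the covariate and 0.965 with log2 TOC1 as the covariate in place of the 2 groups. The transgene had an adjusted p of 0.281 by edgeR without a covariate and 0.00427 with the TOC1 group.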

How the data were processed

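RNA from 6 libraries of young flower buds was sequenced by the authors on an Illumina HiSeq instrument, aligned with HISAT2 to TAIR10 plus the transgene, and counted per gene with featureCounts. The deposited values are raw counts, with tool versions and strand setting not given in the sources used here. Genes were kept by edgeR 4.0.16 (filterByExpr, R 4.3.3, minimum count 10, minimum total 15), scaled by TMM, and fitted on genotype and TOC1 group (prior count 0.125). Transgenic and wild type buds were compared by edgeR's quasi-likelihood test with Benjamini-Hochberg adjustment over all genes. The test was also run on simulated counts, whose spread was estimated with the TOC1 group in the model. The main test has no such term, so the simulation does not show how it behaves on these libraries. DESeq2 1.42.0 was an alternative. The separate origin of plants within a genotype is stated only as biological replicates.

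The members and lists were chosen with earlier results of these data known, and 4 lists (jasmonate, JAZ, aquaporins, CBF) after the values were seen. Genes named were the 4 members of each list with the largest absolute difference at a mean of at least 1 CPM, and 12 genes in each direction outside the lists, separated, at least 1 apart on the log2 scale within each genotype, and at a mean of at least 5 CPM. Other genes named beside them were chosen after their values were seen. The planned ribosomal protein list was not used, since product names do not tell cytosolic from organellar members. Motifs were searched in 300 bases before the start of 18600 genes. Alternatives were another scaling, other filters, no genotype term, a replicate block, DESeq2, the older quasi-likelihood method and leaving out libraries. The upstream sequence of 1 further gene is not reported here.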

Additional observations from a re-analysis of the deposited data

Results flagged for a closer look

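For 6 quantities all wild type libraries moved one way between the TOC1 groups and all transgenic libraries the other, and none of these differences was tested. The log2 difference in the wild type minus that in the transgenic buds was 0.67 for NIR1 (nitrite reductase), -0.60 for SDS (a meiotic cyclin) and 1.56 for GRP19 (an oleosin of the pollen coat). For the mean log2 level of a list it was 0.54 for the clock core, -1.72 for heat shock genes and -0.0418 for early anther genes. The clock core mean pools morning and evening genes, and rests here on wild type 2 at -0.271 against wild type 3 at -0.273. Its median difference over members was positive in both genotypes, at 1.58 in the wild type and 0.38 in the transgenic buds.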

How the results depend on the processing

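The 64 separated genes among the 128 named kept their sign under each of the 13 alternatives that gave them a value, as did 115 of the 128, where genes with under 10 counts in a library had none under the stricter filter. For the 64 this was largely fixed in advance, because they were chosen as genes whose groups do not overlap. Of the list medians 10 of 27 changed sign under at least 1 alternative. Separated genes numbered 409 higher and 386 lower. They were 658 and 656 without wild type 1 and transgenic 1. When 1 library was left out they were between 446 and 681 higher and between 425 and 642 lower. Fewer libraries must then be kept apart. The genes were not all the same ones, and without wild type 3 only 290 of the 409 and 297 of the 386 were still separated. The separated genes were 604 and 532 with no filter on low counts, and 297 and 292 with at least 10 counts in every library. The replicate numbers did not pair the samples, as same-numbered libraries had correlations of deviations of -0.06, -0.09 and -0.33. With a replicate block the separated genes were 412 and 390.

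The 3 genes called between transgenic and wild type buds became 17 with the TOC1 group as covariate, 18 with log2 TOC1, 62 by DESeq2, and 0 to 5 when 1 library was left out, 1 without transgenic 1 and 5 without wild type 3. By edgeR 0 genes were called without wild type 1 or wild type 2, where 750 and 1650 had an unadjusted p under 0.05, and with the replicate block, where 961 did. RLE scaling, the stricter filter and the older method each gave 2 calls. The smallest levels named here rest on few counts (LHY had 2 in transgenic 3), so their fitted differences depend on the prior count.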

Other observations

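The TOC1 groups were made from TOC1 in these same libraries, so calls with them or log2 TOC1 as a covariate are given as a description. With the TOC1 group as a covariate 17 genes were called between transgenic and wild type buds by edgeR. Beside the transgene, LHY and the 3 genes called without it, they included MBP1, a myrosinase-binding protein, at a log2 difference of 1.07 (adjusted p = 0.0364), THI2.1, a thionin, at 1.81 (adjusted p = 0.0247), and LEA7, a late embryogenesis protein, at -1.54 (adjusted p = 0.0497). In that order their adjusted p by edgeR was 0.058, 0.091 and 0.079 with log2 TOC1 as the covariate. Without a covariate it was 0.417, 0.722 and 0.699. Genes called with either covariate included AT5G66390, AT3G58550, AT3G19390 and TBL26. THI2.1 was at 179, 39.8 and 87.5 CPM in transgenic replicates 3, 1 and 2, against 50.1, 54.6 and 17.7 CPM in wild type replicates 1, 2 and 3, so the genotypes overlapped.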
